A study of Homo sapiens with 8 samples.

Results

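Replication origins of *ORC1Δ* cells were set directly against those of *ORC5Δ* cells, without the parental line between them. The origin recognition complex (ORC) is a ring-forming ATPase that helps to load the MCM2–7 helicase onto DNA in G1 phase. ORC1 is the subunit whose level changes through the cell cycle in human cells, and ORC5 is a core subunit that binds ATP. The 4 samples compared were 2 SNS-seq libraries of *ORC1Δ* (ORC1KO) and 2 of *ORC5Δ* (ORC5KO) HCT116 cells, a human colon cancer line of epithelial type. Per the study's methods, both lines were made by CRISPR–Cas9 from p53−/− HCT116 cells, so both lack p53 as the parental cells (WT) do. No sample was treated. A figure legend of the study speaks of clones of cells, but the sources do not say whether each sequenced line is a single clone. SNS-seq sequences short nascent strands, the new DNA near points where replication has just started, after size selection and digestion of other DNA by lambda exonuclease. The deposited counts come from genomic DNA, so the cell type could not be checked against marker genes.

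Members of the comparison were rows of the table that sets WT against *ORC1Δ* and rows of the table that sets WT against *ORC5Δ*. A row of each table was paired with a row of the other where they overlapped by 50% or more of both, on chromosomes 1 to 22 and X. This gave 35834 paired origins, from 42156 rows of the *ORC1Δ* table (85% paired) and 46463 rows of the *ORC5Δ* table (77.1% paired). The 3 tables of the series hold 133590 rows in all. Each table merges the 2 replicates of a line into a single count. No spread between replicates can therefore be given and no test between the lines was run. Intervals at 95% cover counting error only, and reads copied from a single molecule count more than once where duplicates were kept. The paired origins held 5887299 *ORC1Δ* reads and 7189990 *ORC5Δ* reads, with a median of 126 and 153 reads per origin. Levels are given as RPM per kb, the reads per 1000000 reads of the line in the paired origins, divided by the width of the row in kb. At the median origin, the 95% interval of the log2 ratio reached 0.35 to either side.

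Origins in human cells are set by DNA sequence only loosely. Many lie at CpG-rich gene starts or at stretches in which one strand holds far more G than C, a property called GC skew. GC skew is the difference of G and C over their sum, from −1 to 1 on the forward strand, and its absolute value is used here so that the strand does not matter. The origins that stood farthest apart between the lines are shown first, so that their sequence can be read beside their values. For 3 origins most firmly higher in *ORC1Δ* and 4 most firmly higher in *ORC5Δ* cells, ranked by the interval bound nearest to equal levels, the 150 bases with the greatest excess of G over C, or of C over G, are printed. All are hg38, forward strand, with the base in excess in capitals. The first 3 were higher in *ORC1Δ* cells, from COL23A1, PTPRN2, and a site near ZNF354B.
COL23A1, chr5:178495536-178495685: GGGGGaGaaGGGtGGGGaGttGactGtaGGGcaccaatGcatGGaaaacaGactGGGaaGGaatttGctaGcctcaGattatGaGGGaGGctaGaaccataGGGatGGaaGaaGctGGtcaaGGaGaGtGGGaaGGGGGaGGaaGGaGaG
PTPRN2, chr7:158360009-158360158: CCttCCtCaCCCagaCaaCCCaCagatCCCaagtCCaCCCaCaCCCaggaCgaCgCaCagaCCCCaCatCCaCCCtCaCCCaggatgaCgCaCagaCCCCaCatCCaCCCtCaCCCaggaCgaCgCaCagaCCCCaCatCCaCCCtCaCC
near ZNF354B, chr5:178843749-178843898: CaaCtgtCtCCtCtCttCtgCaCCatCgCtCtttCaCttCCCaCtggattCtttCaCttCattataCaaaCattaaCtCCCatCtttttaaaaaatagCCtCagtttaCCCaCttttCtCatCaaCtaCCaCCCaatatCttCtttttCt
The next 4 were higher in *ORC5Δ* cells, from MICALL2, ELFN1, a site near MAST4, and PRKAR1B.
MICALL2, chr7:1454254-1454403: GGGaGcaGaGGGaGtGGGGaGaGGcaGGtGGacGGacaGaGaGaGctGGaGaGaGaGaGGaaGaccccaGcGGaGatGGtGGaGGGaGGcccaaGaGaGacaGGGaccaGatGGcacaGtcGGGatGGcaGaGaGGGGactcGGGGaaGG
ELFN1, chr7:1665586-1665735: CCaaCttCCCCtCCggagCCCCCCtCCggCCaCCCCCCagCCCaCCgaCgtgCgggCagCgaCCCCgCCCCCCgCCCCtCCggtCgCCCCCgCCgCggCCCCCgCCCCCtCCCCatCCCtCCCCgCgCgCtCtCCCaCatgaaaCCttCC
near MAST4, chr5:66596088-66596237: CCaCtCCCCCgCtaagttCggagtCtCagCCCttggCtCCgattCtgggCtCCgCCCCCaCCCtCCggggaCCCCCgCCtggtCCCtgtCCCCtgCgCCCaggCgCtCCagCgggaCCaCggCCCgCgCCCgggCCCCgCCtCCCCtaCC
PRKAR1B, chr7:712585-712734: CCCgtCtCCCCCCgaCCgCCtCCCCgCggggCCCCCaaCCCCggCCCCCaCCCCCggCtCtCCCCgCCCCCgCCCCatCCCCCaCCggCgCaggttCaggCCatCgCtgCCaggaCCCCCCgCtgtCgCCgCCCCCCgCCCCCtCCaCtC
The windows from the origins higher in *ORC1Δ* cells had a GC content of 54.0%, 63.3%, and 38.0%. Those from the origins higher in *ORC5Δ* cells had 64.7%, 80%, 76.7%, and 82.7%. The dinucleotide CG occurred 0, 5, and 1 times in the first set and 4, 17, 14, and 16 times in the second. All but the PTPRN2 window lie in stretches of chromosomes 5 and 7 in which most origins moved together, as described further on, and the stretch of chromosome 7 has a median GC content of 62.4%. The windows show these origins and are no measure of composition over the genome.

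A further 2 windows show the strong C excess of some origins that were higher in *ORC1Δ* cells, from SMOC2 and ADARB2. They were chosen after their values were seen.
SMOC2, chr6:168668997-168669146: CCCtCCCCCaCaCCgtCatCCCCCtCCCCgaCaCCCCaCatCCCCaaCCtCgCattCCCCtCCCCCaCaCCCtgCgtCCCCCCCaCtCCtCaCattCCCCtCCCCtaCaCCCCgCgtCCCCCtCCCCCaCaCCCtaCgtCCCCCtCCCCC
ADARB2, chr10:1444285-1444434: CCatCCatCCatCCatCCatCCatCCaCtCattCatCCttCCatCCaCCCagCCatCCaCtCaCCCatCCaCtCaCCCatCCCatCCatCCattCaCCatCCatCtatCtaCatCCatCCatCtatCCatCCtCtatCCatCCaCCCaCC
In these windows the GC skew was −0.85 and −0.97. The ADARB2 window is made largely of short repeats, with ATCC or its complement 20 times.

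Over all paired origins, the levels of the lines were close. Each paired origin was called in WT or in both knockout lines, and 83.1% were on the WT list of called origins. Rows without a partner, mostly called in their own line and not in WT, are outside these values and the counts of calls. The closeness thus holds for paired origins only. The median level was 39.2 RPM per kb in *ORC1Δ* (interquartile range 32.6 to 49.3) and 37.7 in *ORC5Δ* cells (31 to 48.2). Pearson's r of the log2 levels across origins was 0.880. It is a description, since origins of the same libraries are not independent. The log2 ratio of *ORC1Δ* over *ORC5Δ* had a median of 0.053, an interquartile range of −0.10 to 0.20, and an SD of 0.24. It was above equal levels in 59.6% of the paired origins. The lines had separate row boundaries, and the WT reads, counted in the rows of both tables, show what these boundaries make. Between the WT columns of the tables, r was 0.971 and the SD of the log2 ratio was 0.12. Where both rows had the same start and end (6522 origins), the WT counts were equal in 6522 and the ratio of the knockout lines had an SD of 0.26.

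At 1.5-fold or more, 363 origins were higher in *ORC1Δ* and 303 were higher in *ORC5Δ* cells, which are 1.01% and 0.846% of the paired origins. In the same rows, WT over WT passed 1.5-fold in 21 origins (0.0586%) in the direction of the *ORC1Δ* table and in 4 (0.0112%) in the other. The WT reads are the same in both tables, so these counts cover row boundaries only and no difference between libraries. A 2-fold difference was reached by 14 origins higher in *ORC1Δ* and 33 higher in *ORC5Δ* cells. The interval lay apart from equal levels in 363 of the 363 and in 302 of the 303. It comes from the reads that set the calls, so this follows largely from the threshold and is no separate support. Just past the threshold were an origin with 137 *ORC1Δ* and 164 *ORC5Δ* reads and another with 46 and 94 reads. Just short of it were origins with 71 and 91 reads and with 113 and 207 reads. The counts moved with the scaling. With each line scaled to all reads of its own table they were 674 and 205, and with the ratios centred on their median 222 and 440, so the division of calls between the lines rests on the scaling.

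**Figure D1:**
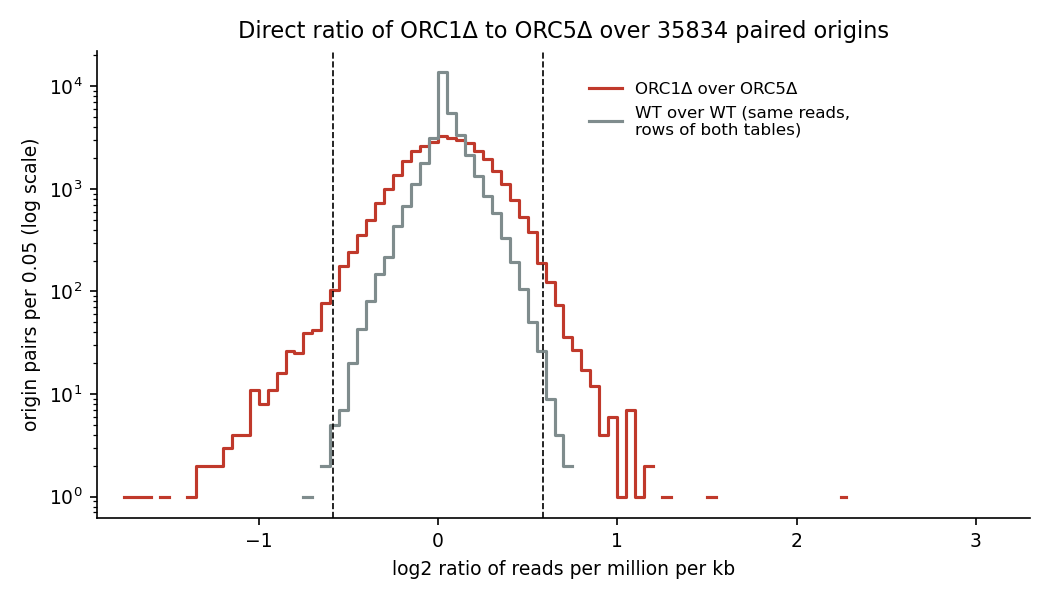
Number of paired origins (log scale) by log2 ratio of RPM per kb, in steps of 0.05, for *ORC1Δ* over *ORC5Δ* (red) and for the WT reads counted in the rows of both tables (grey), with dashed lines at 1.5-fold. The ratio of the knockout lines had an SD of 0.24 and reached −1.74 and 2.26. That of WT (SD 0.12) sets the same reads against themselves, so it shows row boundaries only and no difference between libraries.

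The sets past 1.5-fold differed in what they were made of. Origins higher in *ORC1Δ* cells had a median GC content of 47.8% and a median absolute GC skew of 0.43. Those higher in *ORC5Δ* cells had 64.6% and 0.25, and all paired origins had 53.7% and 0.35. Of the origins higher in *ORC5Δ* cells, 86 (28.4%) lay within 1 kb of a start of a protein-coding gene, against 8 (2.20%) of those higher in *ORC1Δ* and 9.88% of all. A G-quadruplex motif (4 runs of G or of C, which can fold into a stacked structure) was found in 72.6% of the former, in 30.3% of the latter, and in 52.7% of all. Of the 303 origins higher in *ORC5Δ* cells, 90 lay in the first 2 Mb of chromosome 7, with a median GC content of 62.7%, 4 of them (4.44%) near a start and 67.8% with the motif. The other 213 had 67.4%, 82 (38.5%), and 74.6%. Set beside the parental cells, origins higher in *ORC5Δ* had a median log2 of −0.87 in *ORC1Δ* over WT and −0.06 in *ORC5Δ* over WT. Origins higher in *ORC1Δ* had 0.37 and −0.10. The median of *ORC2Δ* over WT was −0.15 in the first of these sets and 0.02 in the second. These values share the WT reads, and the sets were chosen on the *ORC1Δ* and *ORC5Δ* reads, so they are a description.

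GC content ordered the ratio across the whole range. The median log2 ratio of *ORC1Δ* over *ORC5Δ* was 0.19 in the 1047 origins under 40% GC and 0.18 from 40% to 45%. It was 0.16 from 45% to 50%, 0.09 from 50% to 55%, and 0.0094 from 55% to 60%. It was below 0 in GC-rich DNA, at −0.07 from 60% to 65%, −0.13 from 65% to 70%, and −0.21 in the 1328 origins of 70% or more. WT over WT in the same classes had medians of 0.019 to 0.054, rising with GC and so in the other direction. In the class under 40% GC, 79.2% of origins were above equal levels, and in the top class 14.5% were, against 59.6% of all paired origins. Of the 3698 origins of 65% or more, 145 (3.92%) were higher in *ORC5Δ* by 1.5-fold, against 0.846% of all paired origins. Higher in *ORC1Δ* cells were 5 (0.135%), against 1.01% of all. Over the classes from under 40% to 70% or more, the median of *ORC1Δ* over WT ran from 0.07, with a highest value of 0.16 at 40% to 45%, down to −0.37. The medians of *ORC5Δ* over WT lay between −0.07 and 0.0045 and those of *ORC2Δ* over WT between −0.06 and −0.02. The amplification of a library can depend on GC content, and its part in this pattern was not tested.

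Absolute GC skew ordered the ratio in the same sense as low GC content. The median log2 ratio was −0.03 below 0.1, −0.05 from 0.1 to 0.2, and −0.05 from 0.2 to 0.3. Above that it was 0.03 from 0.3 to 0.4, 0.12 from 0.4 to 0.5, 0.16 from 0.5 to 0.6, and 0.19 from 0.6 to 0.7. It was 0.21 from 0.7 to 0.8, 0.24 from 0.8 to 0.9, and 0.25 at 0.9 or more. The 926 origins of 0.8 or more had a median of 0.24, and 91.3% of them were above equal levels, against 59.6% of all paired origins. Their levels had a median of 49.9 RPM per kb in *ORC1Δ* and 43.2 in *ORC5Δ* cells. They were higher than in WT in each line, with a median log2 of 0.77 in *ORC1Δ*, then 0.63 in *ORC2Δ*, and 0.52 in *ORC5Δ* cells. Of the 926, 30 (3.24%) passed 1.5-fold in the direction of *ORC1Δ*, against 1.01% of all paired origins. In that of *ORC5Δ* 5 (0.540%) passed, against 0.846% of all. The difference was thus below 1.5-fold at most of these origins and of the same sign at most of them.

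GC content and GC skew were taken apart by classes of both. Between 50% and 55% GC, the median log2 ratio was −0.01 at an absolute GC skew under 0.2 (826 origins) and 0.26 at 0.8 or more (234 origins). Between 55% and 60% GC it was −0.07 (726 origins) and 0.23 (120 origins). At 60% GC or more it was −0.20 (1452 origins) and 0.19 (31 origins). Under 45% GC it was 0.10 (1178 origins), reached 0.25 at a skew of 0.6 to 0.8, and was 0.21 (200 origins) at 0.8 or more. At a given GC content the ratio thus was higher at strongly skewed origins in each of the GC classes examined. After a running median over GC content was subtracted, the origins of 0.8 or more had a median of 0.11.

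**Figure D2:**
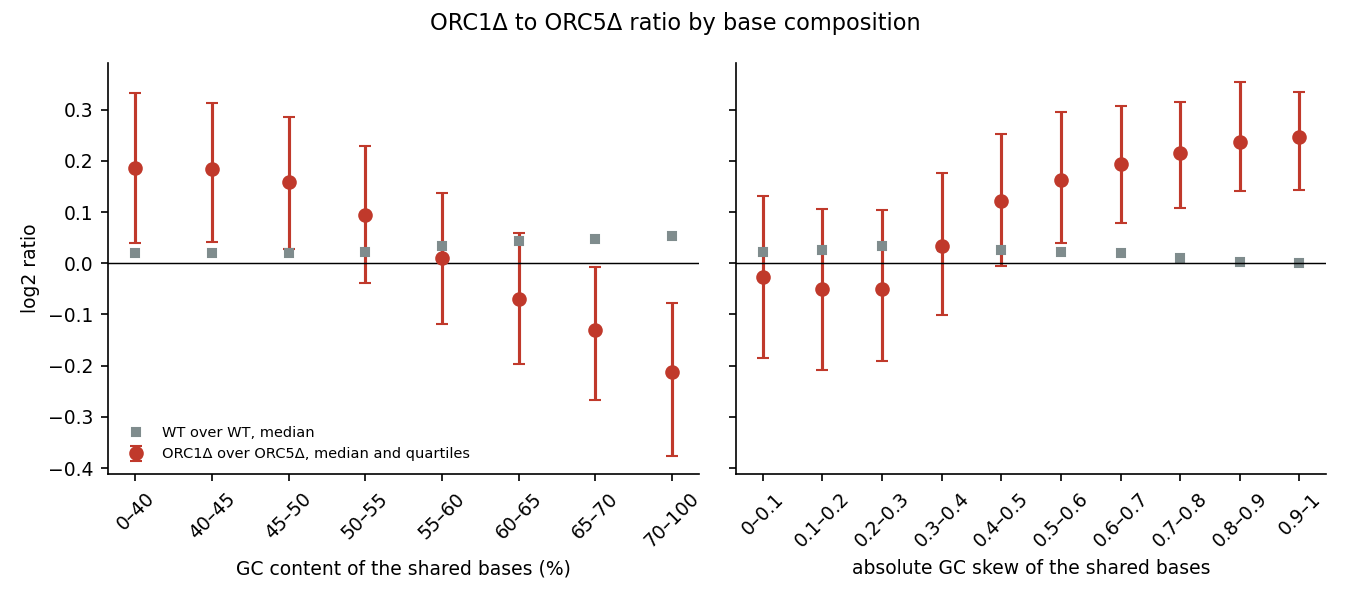
Median log2 ratio of *ORC1Δ* over *ORC5Δ* (red circles, bars from the lower to the upper quartile) and median WT over WT in the same origins (grey squares), by GC content in percent (left) and by absolute GC skew (right). The red medians run from 0.19 under 40% GC to −0.21 at 70% or more, and from −0.03 at the lowest skew to 0.25 at the highest.

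Short tandem repeats, units of up to 6 bases repeated over at least 16 bases, were found by a script on either strand. Repeats of ATCC were present in 919 paired origins, with a median log2 ratio of 0.20 and a median absolute GC skew of 0.77, and 8 of them (0.871%) passed 1.5-fold toward *ORC1Δ*, against 1.01% of all. Repeats of the unit ACCATC were present in 165, with a median of 0.25. Of these, 94.5% were above equal levels, against 59.6% of all paired origins, and 5 (3.03%) passed 1.5-fold toward *ORC1Δ*. The 50 origins with a repeat of AATGG, a unit of human satellite DNA, had a median of 0.36, and 4 of them (8%) passed 1.5-fold toward *ORC1Δ*. Repeats of CCG stood at the other end. The 167 origins that held them had a median log2 ratio of −0.25 and a median GC content of 71.1%, and 15 (8.98%, against 0.846% of all) passed 1.5-fold toward *ORC5Δ* and 0 toward *ORC1Δ* cells. After the running median over GC content was subtracted, the medians were 0.06 for ATCC, 0.11 for ACCATC, 0.19 for AATGG, and −0.10 for CCG, each smaller by more than 1.5 times. In the ATCC repeats the median log2 over WT was 0.59 in *ORC1Δ* and 0.37 in *ORC5Δ* cells, with *ORC2Δ* at 0.43. In the CCG repeats they were −0.42 in *ORC1Δ* and −0.09 in *ORC5Δ* cells, with *ORC2Δ* at −0.12. Reads from repeats can be placed at more than a single copy, and how such reads were treated is not given in the sources used here.

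By annotation, the ratio before GC correction was lowest at gene starts. The 3541 paired origins within 1 kb of a start of a protein-coding gene, with a median GC content of 62.9%, had a median log2 ratio of −0.09. At these starts 86 origins (2.43%) passed 1.5-fold toward *ORC5Δ*, against 0.846% of all paired origins. Toward *ORC1Δ* cells 8 (0.226%) passed, against 1.01% of all. Origins in other exons of protein-coding genes had a median of −0.05 (3620 origins). The median was 0.08 in introns (14561 origins), 0.10 in lncRNA genes (3885), and 0.09 outside genes (10227). Origins with a G-quadruplex motif (18890) had a median of −0.0050, and those without it (16944) had 0.12. After the running median over GC content was subtracted, these 2 medians were −0.02 and 0.03. That of gene starts was then −0.020 and that of other exons −0.023, so gene starts were no longer lowest.

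The 10 origins most firmly higher in *ORC1Δ* cells lay on chromosomes 5, 6, 7, 10, and 11, with 6 of the 10 on chromosome 5. They were taken from 33106 origins with at least 100 reads of the lines together and a WT over WT log2 ratio within 0.25 of 0. First was an origin at chr5:178495319-178495830 in an intron of COL23A1, which encodes a transmembrane collagen. It had 102 *ORC1Δ* and 43 *ORC5Δ* reads, or 33.8 and 11.7 RPM per kb. WT had 30.4 and *ORC2Δ* had 24.4, so *ORC5Δ* was the lowest of the lines. The log2 ratio was 1.53 (95% interval 1.01 to 2.08). A further 3 origins of the 10 lay in introns of the same gene, with log2 ratios of 1.27 (0.67 to 1.89), 1.09 (0.57 to 1.62), and 0.78 (0.56 to 1.01). The origin at chr5:178843666-178844365, 15588 bp from ZNF354B, had 29.4 RPM per kb in *ORC1Δ* and 12.9 in *ORC5Δ* cells, a log2 ratio of 1.18 (0.74 to 1.64).

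Of the others, the origin at chr7:158359868-158361286 in an intron of PTPRN2, which encodes a phosphatase-like protein of secretory vesicles, had 491 *ORC1Δ* and 304 *ORC5Δ* reads. Its levels were 58.8 in *ORC1Δ*, 58.2 in *ORC2Δ*, 43.9 in WT, and 29.6 in *ORC5Δ* cells. The log2 ratio was 0.99 (0.78 to 1.20). The origin at chr6:168668537-168669536 in an intron of SMOC2, a secreted calcium-binding matrix protein, had 47.4 in *ORC1Δ*, 50.7 in WT, and 52.3 in *ORC2Δ* against 24.8 in *ORC5Δ* cells. The log2 ratio was 0.94 (0.66 to 1.21). At these sites *ORC5Δ* was below the other 3 lines.

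A different order of the lines was seen at 3 of the 10. The origin in an intron of BET1L on chromosome 11 had 27.2 RPM per kb in WT, 38.9 in *ORC5Δ*, 55.3 in *ORC2Δ*, and 69.1 in *ORC1Δ* cells. The log2 ratio was 0.83 (0.59 to 1.07). This origin holds repeats of AACCCT and of other units, so its reads may come from other copies. The origin in an intron of ADARB2 on chromosome 10, with an absolute GC skew of 0.957, had 25.8 in WT, 33.2 in *ORC5Δ*, 52.5 in *ORC2Δ*, and 55.8 in *ORC1Δ* cells. The log2 ratio was 0.75 (0.56 to 0.94). The origin in an intron of LIFR, the receptor of leukemia inhibitory factor, had 23.9 in WT, 27.4 in *ORC5Δ*, 28.1 in *ORC2Δ*, and 49.9 in *ORC1Δ* cells. Its log2 ratio was 0.86 (0.57 to 1.16), and it was not on the WT list of origins. WT was thus the lowest line at these 3, and *ORC5Δ* was the lowest at the other 7.

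The 10 origins most firmly higher in *ORC5Δ* cells lay on chromosome 7 (9 origins, all in its first 2 Mb) and chromosome 5 (1 origin). In 10 of 10 *ORC1Δ* had the lowest level of the 4 lines, and WT had the highest level in 6 and *ORC5Δ* in 4. The origin at chr7:1453907-1454497 in an intron of MICALL2 had 48 *ORC1Δ* and 173 *ORC5Δ* reads. Its levels were 13.8 in *ORC1Δ*, 33.3 in *ORC2Δ*, 40.4 in *ORC5Δ*, and 43.6 in WT cells, and the log2 ratio was −1.55 (−2.04 to −1.08). The origin at chr7:1665498-1665971 in an exon of ELFN1, with a GC content of 80.4%, had 13.6 in *ORC1Δ* and 41.4 in *ORC5Δ* cells, a log2 ratio of −1.60 (−2.16 to −1.08). In PRKAR1B, which encodes a regulatory subunit of protein kinase A, an exonic origin had 104 *ORC1Δ* and 325 *ORC5Δ* reads, with a log2 ratio of −1.29 (−1.63 to −0.97). An intronic origin of the same gene had 21 and 85 reads, with −1.67 (−2.43 to −0.97).

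The chromosome 5 origin, at chr5:66595783-66596273 and 107 bp from MAST4, had the lowest log2 ratio of all paired origins, −1.74 (−2.49 to −1.06). Its levels were 7.61 in *ORC1Δ*, 21.0 in *ORC2Δ*, 25.5 in *ORC5Δ*, and 27.1 in WT cells. The remaining 5 origins, near and in PDGFA, in C7orf50, in ADAP1 and COX19, and in the lncRNA gene ENSG00000249574, had log2 ratios of −1.39 to −1.16. Of the 10, 10 were on the WT list and 8 on the *ORC5Δ* list, and 1 was on the *ORC1Δ* list.

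**Figure D3:**
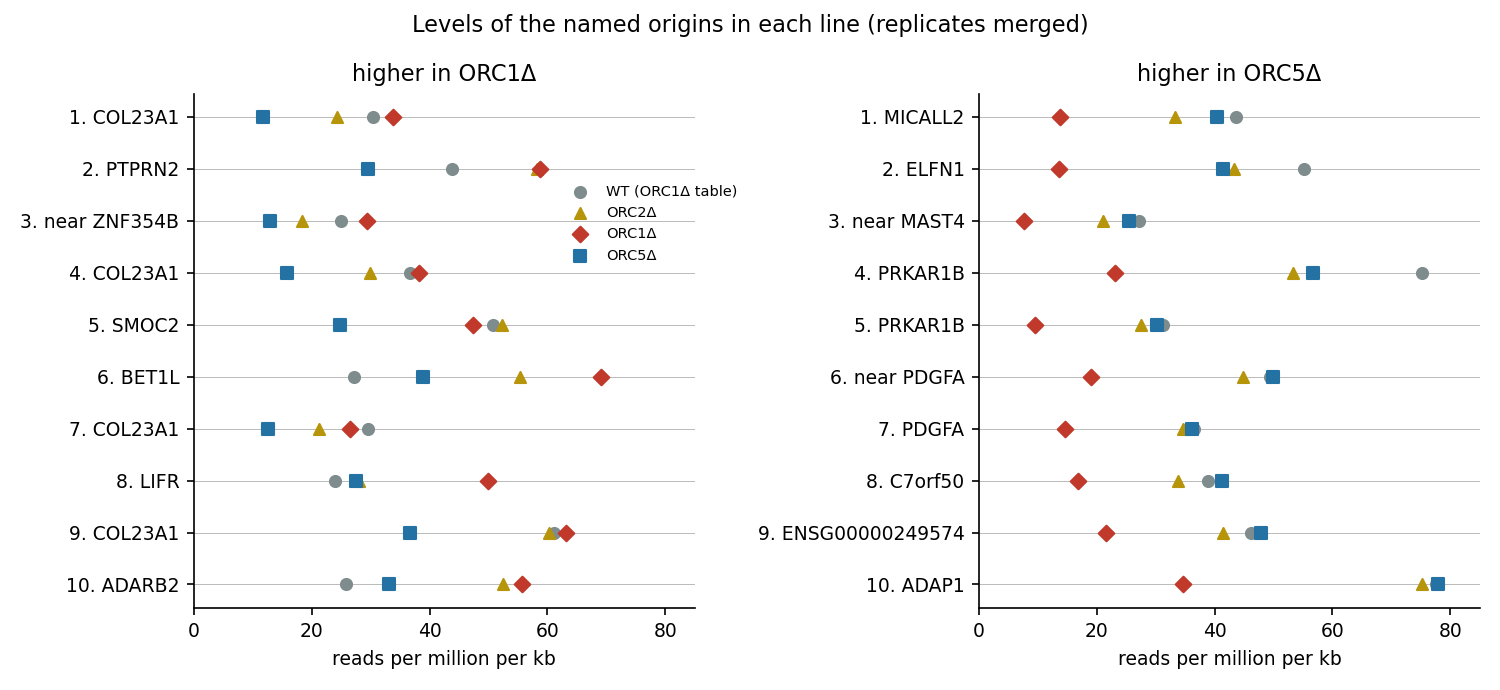
Level in RPM per kb of the 10 origins most firmly higher in *ORC1Δ* (left) and of the 10 most firmly higher in *ORC5Δ* cells (right), named by the gene they lie in or near, with a point for each line (replicates merged, so no error bar). In the right panel *ORC1Δ* (red) was lowest in 10 of 10, and in the left panel *ORC5Δ* (blue) was lowest in 7.

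The highest log2 ratio of all paired origins was at an origin of 311 bp in an intron of LMNB1, which encodes lamin B1, on chromosome 5 from 126824533 to 126824843. It had 59 *ORC1Δ* and 15 *ORC5Δ* reads, against 65 reads in WT and 69 in *ORC2Δ* cells. The log2 ratio was 2.26 (1.43 to 3.19), or 4.80-fold, and with fewer than 100 reads in the lines together it was outside the rule for the named origins. It was chosen after its value was seen. WT over WT there was 0.019, the value that the scaling gives to rows of equal bounds.

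Some of the origins past 1.5-fold lay together in a few stretches of the genome. The 5 Mb blocks with a median beyond 0.25 in either direction held 85 of the 363 calls toward *ORC1Δ* and 121 of the 303 toward *ORC5Δ*. Most calls lay outside them, but so did 34468 of the 35834 paired origins. Of these 34468, 0.807% passed toward *ORC1Δ* and 0.528% toward *ORC5Δ*, against 1.01% and 0.846% of all. In the first 2 Mb of chromosome 7, the 152 paired origins (0.424% of all) had a median log2 ratio of −0.71. Above equal levels were 5.26% of them, against 59.6% of all. Of the 152, 90 (59.2%) passed 1.5-fold toward *ORC5Δ*, which is 29.7% of all such calls. The median of *ORC1Δ* over WT was −0.76 there, while *ORC5Δ* over WT was −0.01 and *ORC2Δ* over WT was 0.03. From 2 to 5 Mb, the median of the ratio was −0.04 (106 origins). The lists of called origins held 153 origins in WT, 172 in *ORC2Δ*, 164 in *ORC5Δ*, and 100 in *ORC1Δ* cells in the first 2 Mb. Here and in the stretches below, the lists come from the same libraries as the ratios, so they are no independent support.

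On chromosome 5, the stretch from 53 to 70 Mb had a median log2 ratio of −0.66, and 56 of its 56 paired origins were below equal levels. Of these, 33 (58.9%) passed 1.5-fold toward *ORC5Δ*, against 0.846% of all paired origins. *ORC1Δ* over WT had a median of −0.84 there and *ORC5Δ* over WT −0.03. The *ORC1Δ* list holds 2 origins in this stretch, against 56 in WT, 93 in *ORC2Δ*, and 98 in *ORC5Δ* cells. On the same chromosome, from 31 to 44 Mb, 81 of 81 paired origins were above equal levels. Their median log2 ratio was 0.49, and 23 (28.4%) passed 1.5-fold toward *ORC1Δ*, against 1.01% of all paired origins. The list held 140 origins in *ORC1Δ* and 90 in *ORC5Δ* cells (61 in WT). *ORC1Δ* over WT had a median of 0.41 and *ORC5Δ* over WT −0.04 there. From 70 to 80 Mb the median ratio was 0.15.

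Of 1184 bins of 1 Mb with at least 10 paired origins, that with the highest median was 178 to 179 Mb of chromosome 5. It holds COL23A1 and the site near ZNF354B. Its 27 paired origins had a median log2 ratio of 0.67. Of the 27, 17 (63.0%) passed 1.5-fold toward *ORC1Δ*, against 1.01% of all paired origins. Here it was *ORC5Δ* that stood apart from WT, with a median of −0.77, while *ORC1Δ* over WT was −0.14 and *ORC2Δ* over WT was −0.03. The *ORC5Δ* list held 11 origins in this stretch and the *ORC1Δ* list 31, against 25 on the WT list and 25 on the *ORC2Δ* list. On the sides of this stretch, the medians of the ratio were −0.02 (176 to 178 Mb, 84 origins) and −0.08 (179 Mb to the end, 84 origins). In the first 9 Mb of chromosome 10, 178 paired origins had a median of 0.29, with *ORC5Δ* over WT at −0.27 and *ORC1Δ* over WT at −0.01.

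Chromosome 8 had the highest median of the chromosomes. Its 2039 paired origins (5.69% of all) had a median log2 ratio of 0.20, with 0.20 up to 45 Mb and 0.20 beyond it. Of the 363 calls toward *ORC1Δ*, 61 (16.8%) were on it. This is 2.99% of its paired origins, against 1.01% of all. *ORC1Δ* over WT had a median of 0.12 there, *ORC5Δ* over WT −0.03, and *ORC2Δ* over WT −0.10. Chromosome 13 had 0.15 (682 origins), and the medians of the chromosomes other than 5, 8, and 13 lay between −0.01 and 0.09. Of 522 blocks of 5 Mb with at least 10 paired origins, 30 had a median above 0.25 and 4 a median below −0.25. The limits of these stretches were set after the values were seen. Input DNA was not analysed here, so whether the lines differ in the number of copies of these stretches was not tested. After the running median over GC content was subtracted, the medians were −0.62 in the first 2 Mb of chromosome 7, −0.79 from 53 to 70 Mb and 0.36 from 31 to 44 Mb of chromosome 5, and 0.61 from 178 to 179 Mb. They were 0.25 in the first 9 Mb of chromosome 10, 0.12 on chromosome 8, and 0.07 on chromosome 13, so the values of the last pair fell by more than 1.5 times. Without the 5 Mb blocks beyond 0.25, 278 origins were higher in *ORC1Δ* and 182 were higher in *ORC5Δ* cells.

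**Figure D4:**
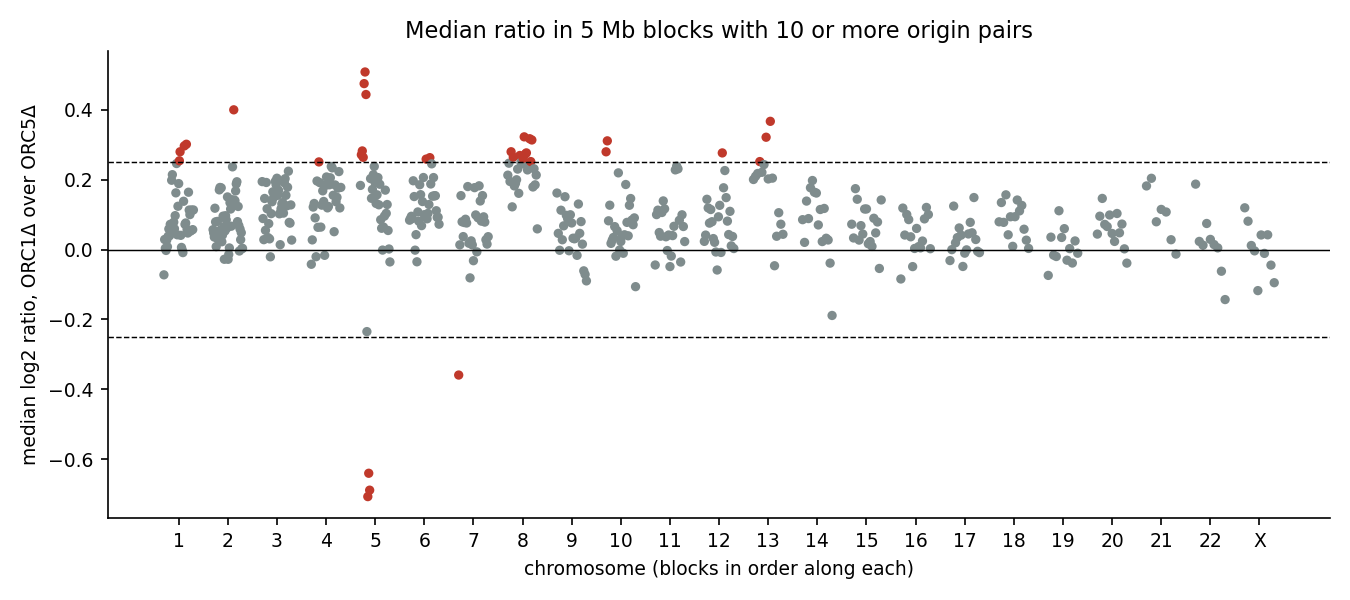
Median log2 ratio of *ORC1Δ* over *ORC5Δ* in each 5 Mb block with at least 10 paired origins, in order along each chromosome (a point is a block), with red points beyond the dashed lines at 0.25 to either side. Blocks of chromosome 5 reach −0.71 and 0.51, the first block of chromosome 7 lies at −0.36, and the blocks of chromosome 8 lie at 0.06 to 0.32.

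Outside the shifted blocks and 1 Mb bins, a set looked at after the data were seen, the origins that led toward *ORC1Δ* were those of PTPRN2, SMOC2, and BET1L described above. Toward *ORC5Δ*, the leading origin lay far from genes on chromosome 20, with 124 *ORC1Δ* and 430 *ORC5Δ* reads and a log2 ratio of −0.89 (−1.19 to −0.59). Here *ORC1Δ* over WT was −0.69, *ORC5Δ* over WT 0.43, and *ORC2Δ* over WT 0.65. An origin near the end of chromosome 12 with an absolute GC skew of 0.992 had −0.73 (−1.02 to −0.44), with *ORC1Δ* over WT at 0.33 and *ORC5Δ* over WT at 0.88. A strongly skewed row could thus also be higher in *ORC5Δ* cells. This row holds repeats of AACCCC and AACCCT, so its reads may come from other copies of the repeat. Origins in genes included an exonic origin of FLRT1 on chromosome 11 with a GC content of 81.4% (75 *ORC1Δ* and 173 *ORC5Δ* reads, log2 ratio −0.89, interval −1.30 to −0.49). An intronic origin of PWWP3A on chromosome 19 had 45 and 107 reads and a log2 ratio of −0.96. An intronic origin of CEP170B on chromosome 14 had 75 and 169 reads and a log2 ratio of −0.88. An exonic origin of CUL1, a scaffold of ubiquitin ligases, had −0.84 (−1.25 to −0.44). At these 4 origins *ORC1Δ* over WT was −1.21, −1.28, −1.15, and −0.97, and *ORC5Δ* over WT was −0.27, −0.30, −0.25, and −0.06.

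Origins in genes that act in replication were looked at by the step of the gene product. Of 17 licensing genes (ORC, CDC6, CDT1, MCM2–7, and their partners), 7 held a paired origin, 8 origins in all, with a median log2 ratio of 0.018. Of 18 genes of origin firing, 8 held 16 origins with a median of 0.03, and of 24 genes of DNA synthesis, 11 held 28 origins with a median of 0.05. None of the 8 and none of the 16 passed 1.5-fold. In the synthesis genes 1 of the 28 did, where 1.01% of all paired origins passed toward *ORC1Δ* and 0.846% toward *ORC5Δ*, so that nothing is read from these counts. It was an intronic origin of RFC3, a subunit of the clamp loader, with 116 *ORC1Δ* and 82 *ORC5Δ* reads and a log2 ratio of 0.60 (0.18 to 1.02). It lies on chromosome 13. After GC correction its ratio was 0.42, and none of the origins in the 3 lists passed 1.5-fold. In the firing genes, an intronic origin of MTBP, on chromosome 8, had 0.45 (0.06 to 0.85). The rows of this origin differ in width, its WT over WT was −0.37, and corrected by WT its ratio was 0.82, past 1.5-fold, while GC correction gave 0.27. With the correction by WT, 1 of the 16 firing origins and 2 of the 28 synthesis origins passed (RFC3 at 0.71 and an intronic origin of LIG1, the DNA ligase, at −0.59). An origin shared by TICRR and KIF7 had −0.47 (−0.83 to −0.12). The median over all paired origins was 0.053.

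In the licensing genes, the origin at MCM7, a helicase subunit, had a log2 ratio of −0.34 (−0.56 to −0.12). That at CDT1, the loading factor, had −0.33 (−0.60 to −0.07). After GC correction MCM7 had −0.27 and CDT1, with a GC content of 72.8%, had −0.13. The origin at CDC6, which works with ORC, had 0.0038 (−0.33 to 0.33). The intronic origin of ORC1 had 81 *ORC1Δ* and 84 *ORC5Δ* reads, with 89 in WT, and a log2 ratio of 0.24 (−0.22 to 0.69), which includes equal levels. ORC5 held no paired origin. A row of the *ORC5Δ* table in it had 81 *ORC5Δ* and 53 WT reads. Of 9 genes with origins long known from other methods, 3 held 9 paired origins with a median log2 ratio of −0.08, and none passed 1.5-fold. The origin of MCM4 had 0.17 (−0.27 to 0.62), the highest of them. LMNB2 held 5 paired origins with log2 ratios of −0.39 to 0.04, and 2 of these had an interval below 0 (−0.23, −0.38 to −0.08, and −0.39, −0.68 to −0.11). MYC held 3, with log2 ratios of −0.10, −0.03, and 0.06, each with an interval that includes 0.

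The second measure was the lists of called origins, the MACS2 peaks found in both replicates of a line. On chromosomes 1 to 22 and X there were 33530 origins in *ORC1Δ* and 41328 in *ORC5Δ* cells, 1.23 times as many. Of the *ORC1Δ* origins, 25854 overlapped an *ORC5Δ* origin by at least 1 bp, or 77.1% (95% Wilson interval 76.7% to 77.6%). Of the *ORC5Δ* origins, 25811 overlapped an *ORC1Δ* origin, or 62.5% (62.0% to 62.9%). Both intervals treat origins as independent, which they are not, and cover no difference between libraries. The median gap between neighbouring origins was 14806 bp in *ORC1Δ* and 12011 bp in *ORC5Δ* cells. Chromosome 8 was the only chromosome with more origins in *ORC1Δ* (2246) than in *ORC5Δ* cells (2216). The *ORC5Δ* table also held more reads than the *ORC1Δ* table (8523971 against 6691088), and the part of depth in the number of called origins was not tested.

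The origins without a counterpart differed between the lines in sequence. The 7676 origins of *ORC1Δ* without one had a median GC content of 47.9%, and the 15517 of *ORC5Δ* had 52.1%. Their median absolute GC skew was 0.392 and 0.315. A G-quadruplex motif was present in 28.5% and 44.7% of them, and 4.96% and 9.08% lay within 1 kb of a protein-coding start. An absolute GC skew of 0.8 or more was found in 2.5% of the former and 0.677% of the latter. Both were below the shared origins, with 3.19% on the *ORC1Δ* list and 3.22% on the *ORC5Δ* list. The shared origins had a median GC content of 53.8% in each list. Cliff's delta, the chance that an *ORC1Δ* origin has the higher value minus the chance that it has the lower, was 0.156 for absolute GC skew over the whole lists and 0.323 over origins without a counterpart. For GC content it was −0.05 and −0.30. For width it was −0.02 and 0.08, so the direction of width turned with the set.

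**Figure D5:**
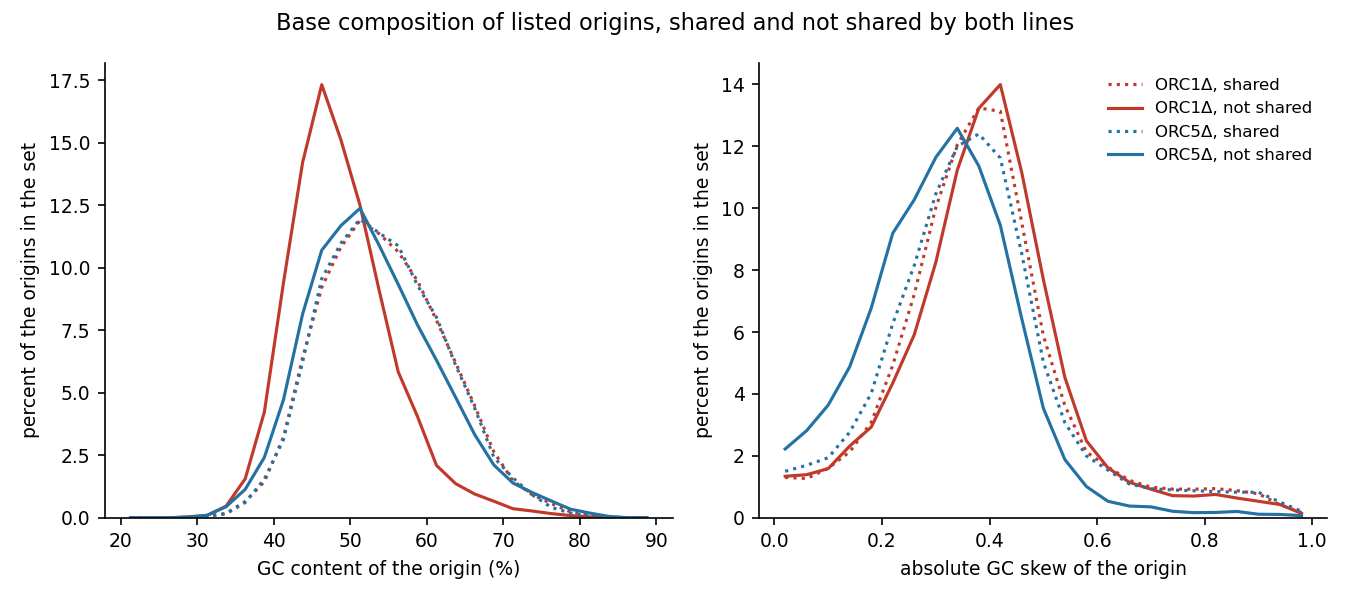
Percent of called origins by GC content (left, steps of 2.5%) and by absolute GC skew (right) in the lists of *ORC1Δ* (red) and *ORC5Δ* (blue), for origins with a counterpart in the other list (dotted) and without (solid). The solid red line peaks at lower GC content than the other lines (median 47.9%), and the solid blue line lies at lower skew (median 0.315).

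Presence on a list and level were only loosely tied. The 5255 paired origins on the WT and *ORC5Δ* lists and not on the *ORC1Δ* list had a median log2 ratio of −0.06. Of these, 181 (3.44%) passed 1.5-fold toward *ORC5Δ*, against 0.846% of all paired origins. The 1868 on the WT and *ORC1Δ* lists and not on that of *ORC5Δ* had a median of 0.06. Past 1.5-fold toward *ORC1Δ* were 39 (2.09%), against 1.01% of all. Both classes were chosen by calls from the same libraries as the ratio. A higher share toward the line that called them therefore follows from the choice. The 3340 on the WT list and on neither list of the compared lines had a median of 0.03. Of them, 67 (2.01%) passed toward *ORC1Δ* and 56 (1.68%) toward *ORC5Δ*. The 19329 on the lists of WT and both lines had 0.04. After the running median over GC content was subtracted, the medians of these classes were −0.09, −0.03, −0.05, and 0.0028, in the order given. The 6042 on the lists of both knockout lines and not on that of WT had the highest median, 0.19. With a median GC content of 49.5%, they had a median of 0.08 after GC correction. Of these origins, 116 (1.92%, against 1.01% of all) passed 1.5-fold toward *ORC1Δ* and 3 (0.0497%, against 0.846%) toward *ORC5Δ* cells. In the last class the median log2 over WT was 0.31 in *ORC1Δ* and 0.15 in *ORC5Δ* cells, and since these origins were called in both lines and not in WT, levels above WT follow from how the class was chosen.

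Rows without a partner in the other table, 6322 of *ORC1Δ* and 10629 of *ORC5Δ*, stood mostly for origins called in that line and not in WT. Of the rows of *ORC1Δ*, 97.9% were on the *ORC1Δ* list and 5.08% on the WT list. Of the rows of *ORC5Δ*, 99.7% were on the *ORC5Δ* list and 2.54% on the WT list. Their median level was 36.5 RPM per kb in *ORC1Δ* against 28.3 in WT, a median log2 of 0.36, and 31.8 in *ORC5Δ* against 29.4 in WT, a median log2 of 0.11. A level above WT follows from the choice of these rows and is no finding. No level of the other line can be given for them, because its table has no row that overlaps by 50% or more.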

How the data were processed

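SNS-seq was done in HCT116 WT, *ORC1Δ*, *ORC2Δ*, and *ORC5Δ* cells, 2 libraries per line and 8 in all. The authors deposited raw counts of reads per origin in 3 tables, each for WT and a knockout line with replicates merged, and a list of origins per line. Per the submitters' processing notes, Trim Galore 0.6.4, Bowtie, MACS2, bedtools, and GRCh38 were used. The counting tool and the handling of duplicates are not given in the sources used here. Chromosome ends in the files fit hg38.

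Rows were paired at 50% reciprocal overlap. Levels are reads per 1000000 reads of a line in the paired rows, per kb, and log2 ratios have exact 95% Clopper-Pearson intervals conditional on the reads of both lines. Called means 1.5-fold (log2 0.58), with no filter and no pseudocount. Total reads per line and table were 6416892 to 8523971. Sequence properties come from the bases shared by both rows (hg38), and genes from GENCODE release 44. GC correction subtracted a running median over 2001 origins ordered by GC content. Named were the 10 origins per direction whose interval bound nearest to 0 lay farthest from it (100 reads or more of the lines together, WT over WT within 0.25), origins in fixed gene lists, and 5 Mb blocks of at least 10 origins with a median beyond 0.25. Repeats of a unit were exact over at least 16 bases. The windows of 2 origins are not reported here. The members and lists were chosen with earlier results of these data known. Calls and intervals were tested on simulated data. The alternatives covered scaling, width, pairing, filters, thresholds, GC correction, and regions left out. No column of per-sample values was left unused. TMM factors came from edgeR 4.0.16 in R 4.3.3. The other steps ran in Python 3.11.15 with scipy 1.17.1, numpy 2.4.6 and pandas 2.3.3, sequences were read with pysam 0.24.0 after indexing by samtools 1.23.1, and plots were drawn with matplotlib 3.10.9.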

Additional observations from a re-analysis of the deposited data

How the results depend on the processing

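No paired analysis was possible because the tables merge the replicates of each line, and for the same reason no replicate could be left out. The number of origins higher in *ORC1Δ* was 674 with all reads of a table as the scale, 222 with ratios centred on their median, 1025 without division by width, and 140 after GC correction. It was 87 in rows of equal bounds (1.33% of 6522 origins), 213 at 80% overlap (0.695% of 30654), 14 at 2-fold, and 214 without chromosomes 5, 7, and 8 (0.699% of 30618). The number higher in *ORC5Δ* was 1030 without division by width, 554 after correction by WT, 102 in rows of equal bounds (1.56%), 33 at 2-fold, 182 without 5 Mb blocks beyond 0.25, 188 without 1 Mb bins beyond 0.4, and 168 without chromosomes 5, 7, and 8. More origins passed toward *ORC5Δ* than toward *ORC1Δ*, the reverse of the main order, in rows of equal bounds, at 80% overlap (283), at 2-fold, when centred (440), without division by width, after correction by WT, after GC correction (265), and among origins with WT over WT within 0.25 (285 against 263). The settings on 1 Mb bins, on chromosomes 5, 7, and 8, and on WT over WT, the corrected ratios in the gene lists, and the split of the 303 origins by the first 2 Mb of chromosome 7 were added after seeing the data. The other counts stayed within 1.5 times.

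Median log2 ratios are given in the order absolute GC skew of 0.8 or more, GC content under 40%, GC content of 65% or more, and protein-coding starts. They were 0.30, 0.25, −0.10, and −0.025 with table totals and 0.19, 0.13, −0.21, and −0.14 when centred. Without division by width they were 0.30, 0.16, −0.25, and −0.16, after correction by WT 0.25, 0.15, −0.24, and −0.15, and in rows of equal bounds (26 origins in the skew class) 0.14, 0.12, −0.24, and −0.16. GC correction gave 0.11, −0.0015, −0.0034, and −0.020, and removes the differences between GC classes by construction, with the sign of the class under 40% turned. At 80% overlap the last 2 were −0.17 and −0.10. In 500 bp around the midpoint the skew class had 0.23 and the class of 65% or more −0.15, and without shifted 5 Mb blocks the class under 40% had 0.17. In no other setting did a sign turn.

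The share of *ORC1Δ* origins with an *ORC5Δ* origin was 74.8% at 50% of both, 76.6% by midpoint, and 73.6% among wide origins, and the share of *ORC5Δ* origins was 60.7%, 61.7%, and 59.6%. Cliff's delta in 500 bp windows was 0.130 for absolute GC skew and −0.0547 for GC content. Over origins without a counterpart it was 0.323, −0.303, and, for width, 0.0815, which turned its sign. At the 20 named origins, 120 of 120 values under the 6 settings that recompute a ratio (3 scalings, no division by width, correction by WT, GC correction) stayed within the main interval, with a largest move of 0.39. The 3 scalings move all ratios by a constant, and the rule for naming kept WT over WT within 0.25. For these settings the outcome was thus largely fixed by the choice of origins and is no sign of robustness. Depth limits single origins, where the interval reached 0.35 to either side at the median.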
